A study of Mus musculus with 9 samples.

Results

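The enzymes of glycolysis and the genes that respond to low oxygen were measured as RNA in single mouse fibroblasts. They were taken by symbol from a list of 33 genes, which matched 34 gene IDs among the 30407 features that both experiments share. Of the 33, 14 encode glycolytic enzymes, 2 encode transporters of glucose or lactate, 3 encode regulators of flux through the pathway, 13 are targets of the hypoxia-inducible factors (HIF) outside glycolysis, and 1 is Hif1a itself. The cells were NIH3T3-CG, a line of embryonic fibroblasts, and the study's subject was variability between cells in their Hedgehog response. They were treated with SAG, a small molecule that activates Smoothened and so switches on the Hedgehog pathway. The 9 libraries, 1 for each condition, form 3 time courses. Experiment 2 with Dox was sampled at 0, 19 and 30 h of SAG, Experiment 2 without Dox at the same times, and Experiment 1 at 0, 17 and 30 h. What Dox acts on in these cells is not said in the labels, which do not mention Dox for Experiment 1. No later library was kept without SAG, so hours with SAG and hours in culture cannot be told apart. Since the labels number the experiments but say nothing of separate cultures, the p-values reflect how far these libraries spread, and that spread may be technical. With 1 library for each condition, that spread is how far the time courses disagree over time, not a difference between replicates.

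Glycolysis turns glucose into pyruvate in the cytosol, and lactate dehydrogenase then reduces pyruvate to lactate so that the pathway can run without oxygen. HIF-1α, the product of Hif1a, is made continuously and destroyed when oxygen is present, because prolyl hydroxylases of the Egln family mark it for degradation. When oxygen falls it pairs with ARNT and activates genes for glucose uptake, glycolysis, red cell and vessel growth factors, mitophagy and collagen modification, including the Egln genes that limit it. Cultured fibroblasts use much glycolysis even in air, so these genes are read here from a basal state: no condition in the labels concerns oxygen or glucose.

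HIF binds DNA at a short core written ACGTG or GCGTG, and stretches from 6 promoters are shown because they come from genes that were lower with Dox in Experiment 2. Each stretch is the 160 bases before the RefSeq start on GRCm38.p6, written 5′ to 3′ on the gene's own strand, with every match to either core in capitals on either strand (read backwards the cores are CACGT and CACGC). Pgk1 lies at chrX:106186940-106187099 on the plus strand, Ldha at chr7:46845644-46845803 on the plus strand, Gapdh at chr6:125165774-125165933 on the minus strand, Bnip3 at chr7:138909507-138909666 on the minus strand, P4ha2 at chr11:54100764-54100923 on the plus strand and Egln3 at chr12:54203875-54204034 on the minus strand.
Pgk1: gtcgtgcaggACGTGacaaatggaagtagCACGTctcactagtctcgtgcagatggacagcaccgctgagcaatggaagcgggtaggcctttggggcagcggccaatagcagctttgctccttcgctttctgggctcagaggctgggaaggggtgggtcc
Ldha: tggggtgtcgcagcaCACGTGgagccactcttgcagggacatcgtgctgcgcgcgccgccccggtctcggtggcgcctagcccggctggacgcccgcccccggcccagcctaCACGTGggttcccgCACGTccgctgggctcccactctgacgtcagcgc
Gapdh: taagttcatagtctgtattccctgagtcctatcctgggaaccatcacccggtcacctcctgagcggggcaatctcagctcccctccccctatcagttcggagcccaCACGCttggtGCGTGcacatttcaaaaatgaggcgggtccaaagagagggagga
Bnip3: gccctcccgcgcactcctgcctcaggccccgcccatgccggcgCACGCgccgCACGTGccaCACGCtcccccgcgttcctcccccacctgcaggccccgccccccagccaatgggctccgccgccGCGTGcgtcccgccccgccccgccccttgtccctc
P4ha2: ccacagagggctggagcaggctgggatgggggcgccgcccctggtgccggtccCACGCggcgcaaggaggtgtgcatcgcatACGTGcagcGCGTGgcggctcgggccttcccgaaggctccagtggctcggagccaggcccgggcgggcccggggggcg
Egln3: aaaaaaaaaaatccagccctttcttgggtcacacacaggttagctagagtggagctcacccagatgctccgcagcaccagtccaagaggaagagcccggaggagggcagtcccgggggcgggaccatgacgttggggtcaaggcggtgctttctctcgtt
The Pgk1 stretch has ACGTG at -150 and its reverse at -131, counted from -1 at the last base before the start. In Ldha the palindrome CACGTG, which is also the E-box read by other factors, stands at -145 and -48, and a further reverse core at -34. Bnip3 holds 5 matches between -117 and -35, P4ha2 holds 3 between -107 and -69, and Gapdh holds a GCGTG pair at -54 and -44. The Egln3 stretch holds no match, although the window of 250 bases has ACGTG at -229.

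RefSeq's table gave 48 promoters for 31 of the 33 genes, with Ero1l found under its current name Ero1a; Bnip3l and Angptl4 had no entry. Over 250 bases before the start, 77.1% of the 48 held ACGTG or GCGTG on either strand, and 38.6% of all 32851 promoters of the same length did. For ACGTG alone the shares were 50% and 16.6%, and for CACGTG, which overlaps it, 10.4% and 6.02%. The 24 enzyme promoters and the 16 promoters of HIF targets each held either core in 75.0%. Base composition was not matched, and a match is a description, not a site or a cause.

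Barcodes were kept from 5000 UMIs upwards where mitochondrial UMIs did not exceed 10%. The libraries then held 571 to 6520 cells and 19407468 to 105444824 UMIs. The median kept cell had 8025 UMIs in the 19 h library without Dox and 28335 to 48188 in the other 8. Cells with under 1% mitochondrial UMIs made up 17.87% to 19.69% of the kept cells in the 30 h library without Dox and in the 19 h and 30 h libraries with Dox, and at most 1.41% elsewhere. All 9 fibroblast markers reached 1 CPM (UMIs per 1000000), with a summed level of 6355 to 12010 CPM, and 2 of 4 smooth muscle or myofibroblast markers did, with a sum that ran from 122.6 to 492.8 CPM between libraries and whose part in the results was not tested. The epithelial, endothelial and keratinocyte lists summed to at most 0.606 CPM. The leukocyte list summed to 0.756 to 12.5 CPM, with Cd3e at 0. Library pairs shared 0 to 9 barcodes. Levels below are UMIs per 1000000 (CPM) scaled with TMM factors, which place the typical gene at no difference between libraries. With library totals in place of those factors the median of all genes became 0.41 higher with Dox than without it and 0.28 higher at 30 h than at 0 h of SAG on the log2 scale, and that of Experiment 2 against Experiment 1 became -0.45, so each difference is read relative to the typical gene. UMIs count 3′ ends, and levels of different genes are not compared.

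All but 1 of the genes were measurable. Slc16a3, which exports lactate, had 13 UMIs over all libraries and was not tested, and the second ID that carries the symbol Aldoa had 24. The other 32 were tested by edgeR's quasi-likelihood test with Benjamini-Hochberg adjustment over all 13837 genes that passed the filter on low counts (14354 in the comparison of responses), and a gene is called changed at an adjusted p under 0.05. Cross-mapping to near-copies could affect Gapdh, Pgk1, Ldha, Pgam1, Tpi1 and Eno1, which have processed copies in the mouse genome.

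With Dox, 12 of the 32 tested genes were lower and none was higher. The 12 come from 3 role groups: Aldoa, Gapdh, Pgk1, Eno1 and Ldha among the enzymes, Pdk1 among the regulators, and Bnip3, Ankrd37, Egln3, Ero1l, P4ha1 and P4ha2 among the HIF targets. Among all genes tested, 4.63% were called lower and 10.5% were called in either direction. The median difference of the 32 was -0.37 on the log2 scale, against 0.02 for all genes. Summed over the 14 enzymes, the level was 4322, 4948 and 5743 CPM at 0, 19 and 30 h with Dox, against 6871, 8194 and 8096 CPM without Dox. Summed over the 13 HIF targets it was 574, 518 and 532 CPM with Dox, against 775, 757 and 709 CPM without Dox. Both sums were lower with Dox at every time on this scale. With library totals the enzyme sum was again lower at each time, 3871, 5882 and 6781 CPM with Dox against 4751, 6674 and 8024 CPM without, but the HIF sum was 514, 616 and 629 against 536, 616 and 702 and hardly differed at 19 h. The enzyme sum does not stand for each enzyme: with library totals 7 of the 14 fitted estimates lay above 0 and 7 below. Their median log2 difference was then -0.08, 0.14 and -0.11 at 0, 19 and 30 h, against 0.38, 0.57 and 0.26 for all genes.

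**Figure D1:**
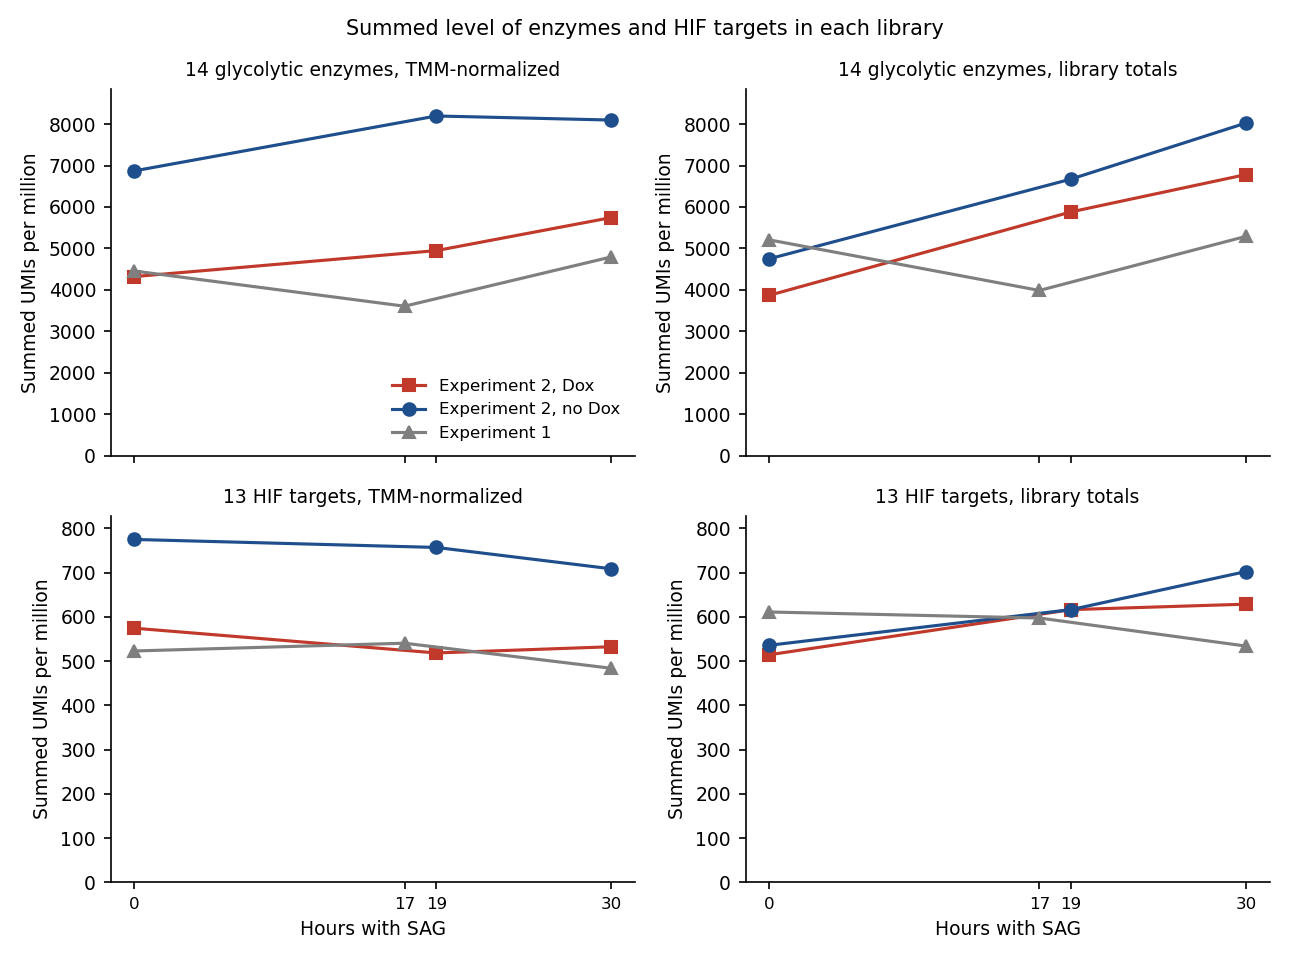
Summed CPM of the 14 glycolytic enzymes (top) and the 13 HIF targets (bottom) in each of the 9 libraries, against hours with SAG, with TMM factors (left) and with library totals (right); each point is 1 library and lines join libraries of 1 time course. The enzyme sum with Dox lies below that without Dox at all 3 times on both scales, 4322 against 6871 at 0 h with TMM factors.

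Among the enzymes the largest difference was in Pgk1 (chrX:106187100-106203699 on GRCm38, as are the positions that follow), phosphoglycerate kinase, which makes the first ATP of the pathway. Pgk1 stood at 404, 379.6 and 415 CPM at 0, 19 and 30 h with Dox, against 892, 821 and 734 CPM without Dox. The groups did not overlap, and the fitted difference was -1.03 ± 0.16 (log2 ± SE, adjusted p = 0.00508). Gapdh (chr6:125161715-125166467), the dehydrogenase one step before it, had 1474.5, 1677 and 1953 CPM with Dox, against 2537, 3212 and 2974 CPM without Dox, a difference of -0.78 ± 0.20 (log2 ± SE, adjusted p = 0.0388). Aldoa (chr7:126795234-126800751), aldolase A, which splits the sugar into a pair of smaller ones, had 543, 563 and 610.3 CPM with Dox, against 879, 1006 and 936 CPM without Dox. Its 3 Dox libraries also lay below all 3 without Dox, and the difference was -0.72 ± 0.18 (log2 ± SE, adjusted p = 0.031).

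Ldha (chr7:46841475-46855627), the muscle-type subunit of lactate dehydrogenase, had 331, 359 and 453 CPM with Dox, against 537, 609 and 621 CPM without Dox. Every Dox library was below every library without Dox, and the difference was -0.64 ± 0.17 (log2 ± SE, adjusted p = 0.0433). Eno1 (chr4:150236721-150248879), enolase, had 264, 273 and 323 CPM with Dox, against 409.8, 450.3 and 407 CPM without Dox, and again the groups did not overlap. Its fitted difference was -0.57 ± 0.15 (log2 ± SE, adjusted p = 0.0416); reads of the near-copy Eno1b cannot be told apart with certainty from it. Tpi1, triose phosphate isomerase, showed the same separation, 290.4, 309.6 and 351 CPM with Dox against 403, 474 and 473 CPM without, but its difference of -0.51 ± 0.15 missed the threshold (adjusted p = 0.061). Pgam1, phosphoglycerate mutase, with 315, 368 and 444 CPM with Dox against 427, 517 and 519.7 CPM without, had overlapping groups and an estimate of -0.38 ± 0.17 (log2 ± SE, adjusted p = 0.161).

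The hexokinases, the phosphofructokinases and pyruvate kinase were not called. Pkm, pyruvate kinase, had 374, 572 and 677 CPM with Dox against 367, 574 and 762 CPM without Dox, nearly equal at 0 and 19 h, with an estimate of -0.05 ± 0.23 (log2 ± SE, adjusted p = 0.887). Hk1, the constitutive hexokinase, had 15.8, 20.9 and 24.0 CPM with Dox against 15.7, 17.6 and 24.6 CPM without Dox, and also overlapped (0.07 ± 0.15, adjusted p = 0.75). Hk2, the inducible hexokinase, had 20.5, 18.5 and 21.2 CPM with Dox against 44.4, 21.9 and 23.6 CPM without Dox, and although the groups did not overlap the 0 h library without Dox stood far above the rest; the estimate was -0.53 ± 0.22 (log2 ± SE, adjusted p = 0.133). Of the 3 phosphofructokinase genes, whose product commits sugar to glycolysis, Pfkl had an estimate of -0.34 ± 0.15, Pfkp of -0.05 ± 0.17 and Pfkm of 0.15 ± 0.20. Gpi1, glucose-6-phosphate isomerase, had 244, 338 and 396 CPM with Dox against 307, 419 and 527 CPM without Dox and an estimate of -0.35 ± 0.17, below 0 at each time but not called.

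Pdk1, the kinase that switches off pyruvate dehydrogenase and so keeps pyruvate from the mitochondrion, had 17.0, 19.2 and 20.8 CPM with Dox, against 25.6, 24.5 and 28.7 CPM without Dox. No Dox library reached the lowest library without Dox, and the difference was -0.46 ± 0.12 (log2 ± SE, adjusted p = 0.0408). Pfkfb3 and Pfkfb4, bifunctional enzymes that set the level of the phosphofructokinase activator, did not follow it. Pfkfb3 had 0.810, 3.92 and 3.41 CPM with Dox against 0.749, 1.40 and 2.17 CPM without Dox, an estimate of 0.85 ± 0.29 (log2 ± SE, adjusted p = 0.0868), and Pfkfb4 had 4.97, 4.27 and 3.54 CPM against 4.22, 4.72 and 4.18 CPM, an estimate of -0.06 ± 0.15 (log2 ± SE, adjusted p = 0.808). Slc2a1, the glucose transporter GLUT1, had 27.3, 34 and 47.7 CPM with Dox against 34.5, 33.8 and 52.6 CPM without Dox and an estimate of -0.14 ± 0.23 (log2 ± SE, adjusted p = 0.697).

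Outside glycolysis, Bnip3 (chr7:138890836-138909519) and Ero1l (chr14:45283087-45318771) had the smallest adjusted p with TMM factors. With library totals Ero1l kept its call, while Bnip3, at -0.51, did not. Bnip3 encodes a receptor for the removal of mitochondria by autophagy, and had 58.3, 36.7 and 38.8 CPM at 0, 19 and 30 h with Dox, against 107, 70.8 and 71.5 CPM without Dox. Its highest Dox library lay below the lowest without Dox, and the difference was -0.90 ± 0.12 (log2 ± SE, adjusted p = 0.00235). Ero1l encodes the oxidase that forms disulfide bonds in the endoplasmic reticulum, and had 63.5, 41.3 and 39.9 CPM with Dox, against 120.3, 100.3 and 89.4 CPM without Dox. The groups did not overlap, with a difference of -1.11 ± 0.16 (log2 ± SE, adjusted p = 0.0035). P4ha1 and P4ha2 encode subunits of collagen prolyl hydroxylase, which stabilises the collagen helix. P4ha2 had 28.4, 31.8 and 36.1 CPM with Dox, against 48.2, 55.7 and 63.0 CPM without Dox, with no overlap and a difference of -0.79 ± 0.14 (log2 ± SE, adjusted p = 0.00792). P4ha1 had 112, 81.4 and 79.9 CPM with Dox, against 143, 134 and 111 CPM without Dox, where the 0 h Dox library lay just above the 30 h library without Dox, and differed by -0.51 ± 0.14 (log2 ± SE, adjusted p = 0.0484).

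Ankrd37, a small ankyrin repeat gene that HIF-1 induces, had 15.5, 7.53 and 8.24 CPM with Dox, against 25.7, 20.6 and 12.8 CPM without Dox. Its groups overlapped, since the 0 h Dox library exceeded the 30 h library without Dox, and the fitted difference was -0.95 ± 0.20 (log2 ± SE, adjusted p = 0.0174). Egln3, an oxygen sensor that HIF itself induces, had 2.48, 2.95 and 3.63 CPM with Dox, against 3.90, 4.62 and 5.56 CPM without Dox, with no overlap and a difference of -0.64 ± 0.13 (log2 ± SE, adjusted p = 0.0184). Egln1, the main sensor, had 46.6, 43.4 and 41.9 CPM against 52.8, 58.4 and 46.5 CPM, overlapping groups and an estimate of -0.25 ± 0.12 (log2 ± SE, adjusted p = 0.167). Bnip3l, a relative of Bnip3, had 117, 117 and 121.5 CPM with Dox against 134, 151 and 144 CPM without Dox; every Dox library was lower, but the estimate of -0.27 ± 0.13 was not called (adjusted p = 0.184). Vegfa, the vascular growth factor, had 37.4, 50.2 and 55.3 CPM with Dox against 53.9, 62.8 and 75.9 CPM without Dox and an estimate of -0.44 ± 0.18 (log2 ± SE, adjusted p = 0.133). Hif1a itself had 98.2, 72.5 and 65.5 CPM with Dox against 93.2, 66.8 and 67.5 CPM without Dox, overlapping throughout, with an estimate of 0.05 ± 0.14 (log2 ± SE, adjusted p = 0.822).

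The remaining HIF targets had estimates on both sides of 0. Adm, adrenomedullin, a peptide that widens vessels, had 32.2, 41.2 and 42.7 CPM with Dox against 24.6, 37.6 and 26.7 CPM without Dox, and an estimate of 0.39 ± 0.15 (log2 ± SE, adjusted p = 0.118). Angptl4, a secreted inhibitor of lipoprotein lipase, had 6.85, 5.46 and 6.89 CPM with Dox against 4.97, 4.80 and 4.49 CPM without Dox (0.42 ± 0.17, adjusted p = 0.126). Its Dox libraries were all above the others. Kdm3a, a histone demethylase, had an estimate of 0.20 ± 0.12, and Mxi1, a MYC antagonist, one of -0.15 ± 0.11, neither called. Counted over the set, 14 of 32 genes had all 3 Dox libraries below all 3 without Dox, against 11.6% of all genes tested; with library totals it was 3 of 32 (9.38%), against 2.67%. The Dox library was the lower of its pair at all 3 times for 10 of 14 enzymes and 10 of 13 HIF targets, 21 of the 32 in all (65.6%), against 31.5% of all genes; with library totals the shares were 34.4% and 7.7%.

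**Figure D2:**
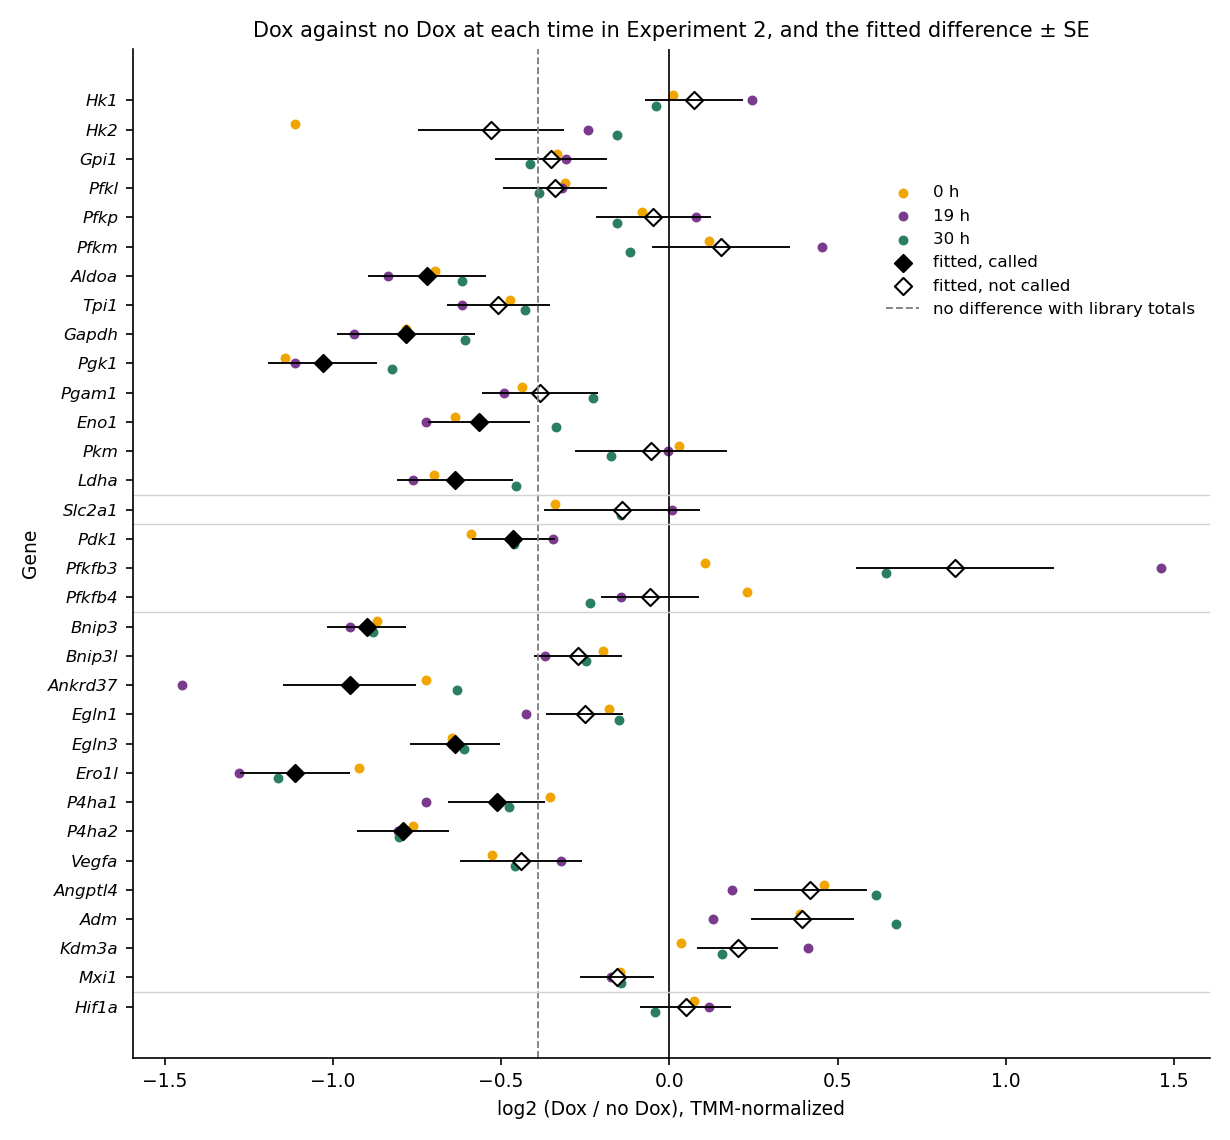
log2 ratio of Dox over no Dox for the 32 tested genes, at 0, 19 and 30 h (coloured points, 1 pair of libraries each) and as fitted over all libraries (diamonds, with bars of 1 SE, filled where called). Grey lines part the role groups. The dashed line marks where the diamond of a gene would lie that did not differ with library totals. It does not hold for the coloured points, since the log2 difference in TMM factors, Dox minus no Dox, was 0.37, 0.55 and 0.25 at 0, 19 and 30 h. Pgk1, Bnip3, Ero1l and P4ha2 lie left of the dashed line at every time, while Pkm, Hk1 and Hif1a lie near 0.

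The Dox difference depended on scale and on single libraries. With library totals all 12 genes kept estimates below 0, from -0.73 for Ero1l to -0.07 for Pdk1, but 2 of 32 were called, Ero1l (adjusted p = 0.0255) and Pgk1 (adjusted p = 0.0327), and the genes called over the whole table became 1503 higher and 92 lower, against 814 higher and 640 lower with TMM factors. The ribosomal protein genes took 38.3%, 32.0% and 32.0% of UMIs at 0, 19 and 30 h with Dox, against 44.0%, 39.4% and 38.0% without Dox, and their part in the result was not tested. The fit without the 0 h Dox library called 5 of the 32 lower and 1 higher. The genes called, all lower, numbered 4 without the 0 h library lacking Dox, 2 without the 19 h Dox library, 1 without the 19 h library lacking Dox and 2 without the 30 h Dox library. They numbered 7, all lower, without the 17 h library of Experiment 1. Over all genes these fits without 1 library called, in the same order, 345, 121, 57, 35, 65 and 389 lower, of 13356 to 13824 tested. Without the 0 h library of Experiment 1, 17 were lower and 3 higher, and of all 13832 genes 2192 were lower and 2220 higher. Without its 30 h library 14 were lower and 1 higher, and of all 13795 genes 1221 were lower and 1435 higher. Fitting the 6 libraries of Experiment 2 alone called 18 of the 32 lower and 3 higher, and of all 13645 genes 2616 lower and 2617 higher. Leaving out the time term called 4 lower, and of all 13452 genes 231 lower. Bnip3 was called in all 9 of the fits that left out a library, with an adjusted p of at most 0.0324, and Ero1l in 8.

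Neighbouring pathways were read from lists outside the set. Of 29 tested genes among other HIF targets, 12 were lower with Dox and 0 higher, led by Mif (-1.21 ± 0.19), a cytokine, Gbe1 (-0.78 ± 0.13), the glycogen branching enzyme, and Stc2 (-0.81 ± 0.16), a secreted glycoprotein. Of 13 targets of ATF4, the factor of the amino acid and stress response, 7 were lower, led by Ddit3 (-1.32 ± 0.21), Asns (-0.70 ± 0.13) and Mthfd2 (-0.61 ± 0.13). Of 14 mitosis genes 5 were lower, with Ube2c at -1.27 ± 0.25, Cdc20 at -0.77 ± 0.17 and Aurkb at -0.66 ± 0.17, and all 14 estimates lay below 0. Among 22 genes of pyruvate entry and the citric acid cycle 1 was lower (Fh1, -0.46 ± 0.13), and none of 7 pentose phosphate genes was called. Of 13 other glycolytic isozymes Bpgm (0.67 ± 0.13) and Pdk2 (0.70 ± 0.16) were higher and Eno3 (-0.80 ± 0.17) lower. That list, called isozymes below, also holds transporters and regulators, among them the Pdk kinases, which are not glycolytic enzymes. Of 6 HIF regulators Arnt2 was higher (2.25 ± 0.26), a partner of HIF subunits, and Cited2, which competes with HIF for its coactivator, was lower (-0.68 ± 0.16).

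Between 0 and 30 h of SAG most enzyme estimates lay above 0 and those of the HIF targets lay on both sides of it. At 30 h against 0 h, 12 of 14 enzyme estimates were above 0 with a median of 0.26, while the 13 HIF targets had a median of -0.07, against a median of about 0 for all genes. By course the enzyme median at 30 h was 0.47 in Experiment 2 with Dox, 0.26 without Dox and 0.05 in Experiment 1. The enzymes above 0 numbered 14, 11 and 9 of 14 in the same order. None of the enzymes was called. The 2 genes of the set that were called were Bnip3, which was lower, and Pfkfb3, which was higher, and 5.67% of all genes were called in this comparison. In Experiment 1 Bnip3 had 51.8, 37.6 and 34.4 CPM at 0, 17 and 30 h, and with the Experiment 2 values above it was highest at 0 h in all 3 time courses. Its fitted difference at 30 h was -0.58 ± 0.12 (log2 ± SE, adjusted p = 0.0344). Pfkfb3 had 1.65, 2.89 and 2.21 CPM in Experiment 1, and was lowest at 0 h in all 3 courses, with a difference of 1.34 ± 0.32 (log2 ± SE, adjusted p = 0.0434).

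Both calls were fragile. Bnip3 and Pfkfb3 kept their sign in each fit that left out 1 library, but both lost the call in 7 of those 9 fits, keeping it without the 0 h or the 30 h library of Experiment 1. No gene of the set was called without any 1 of the other 7 libraries, while 11 were higher and 6 lower without the 0 h library of Experiment 1 and 9 higher and 2 lower without its 30 h library. Calls over all genes also rose in these fits, to 5994 of 13832 without that 0 h library and 3952 of 13795 without that 30 h library. With library totals neither was called, at -0.30 for Bnip3 and 1.61 for Pfkfb3, and among all genes 6 were called higher and 6 lower, against 274 higher and 511 lower with TMM factors.

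Of the enzymes, Gpi1, Pfkl and Pfkp were nearest to a call at 30 h. Gpi1 had an estimate of 0.59 ± 0.17 (log2 ± SE, adjusted p = 0.061), Pfkl of 0.54 ± 0.16 (log2 ± SE, adjusted p = 0.0627) and Pfkp of 0.52 ± 0.17 (log2 ± SE, adjusted p = 0.0805). Gpi1 had 356, 319 and 444 CPM at 0, 17 and 30 h in Experiment 1, and in all 3 courses its 30 h library was the highest. Pkm, with 457, 344 and 463 CPM in Experiment 1, had an estimate of 0.62 ± 0.23 (log2 ± SE, adjusted p = 0.1). Among the HIF targets the estimates ran from -0.74 ± 0.20 for Ankrd37 (adjusted p = 0.056) to 0.49 ± 0.14 for Egln3 (adjusted p = 0.0612). Hif1a had 106, 103 and 90.7 CPM in Experiment 1 and an estimate of -0.43 ± 0.14 (log2 ± SE, adjusted p = 0.0734). With TMM factors it was highest at 0 h in each time course. With library totals that held in Experiment 1 and in Experiment 2 with Dox. Without Dox it then had 64.5, 54.4 and 66.9 CPM at 0, 19 and 30 h.

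At 17 to 19 h against 0 h none of the 32 genes was called by edgeR, 5 had an unadjusted p under 0.05 and DESeq2 called 2. Of all 13837 genes, edgeR called 0.0217%, 1562 had an unadjusted p under 0.05 and DESeq2 called 109. Without the 0 h library of Experiment 1, 6 of the set were higher and 3 lower, and 2487 of all 13832 genes were called. Without its 30 h library 1 was higher and 1 lower, and 200 of all 13795 genes were called. Bnip3 had an estimate of -0.57 ± 0.12 (log2 ± SE, adjusted p = 0.165) and Pfkfb3 of 1.31 ± 0.32 (log2 ± SE, adjusted p = 0.213), close to their values at 30 h; both comparisons share the 0 h libraries. Among the enzymes, 13 of 14 lay lower at 17 h than at 0 h in Experiment 1. At 19 h, 12 of 14 lay higher than at 0 h in each course of Experiment 2. Of the lists outside the set, none had a call at 17 to 19 h. At 30 h the calls were 3 other HIF targets (Ddit4 -0.59 ± 0.14, Gbe1 -0.52 ± 0.13, Lox -0.70 ± 0.18), 2 isozymes (Pdk4 -1.08 ± 0.24, Eno3 -0.68 ± 0.17), Sdhd of the citric acid cycle (-0.58 ± 0.13) and Slc7a5 of the ATF4 targets (-0.59 ± 0.14), all lower.

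**Figure D3:**
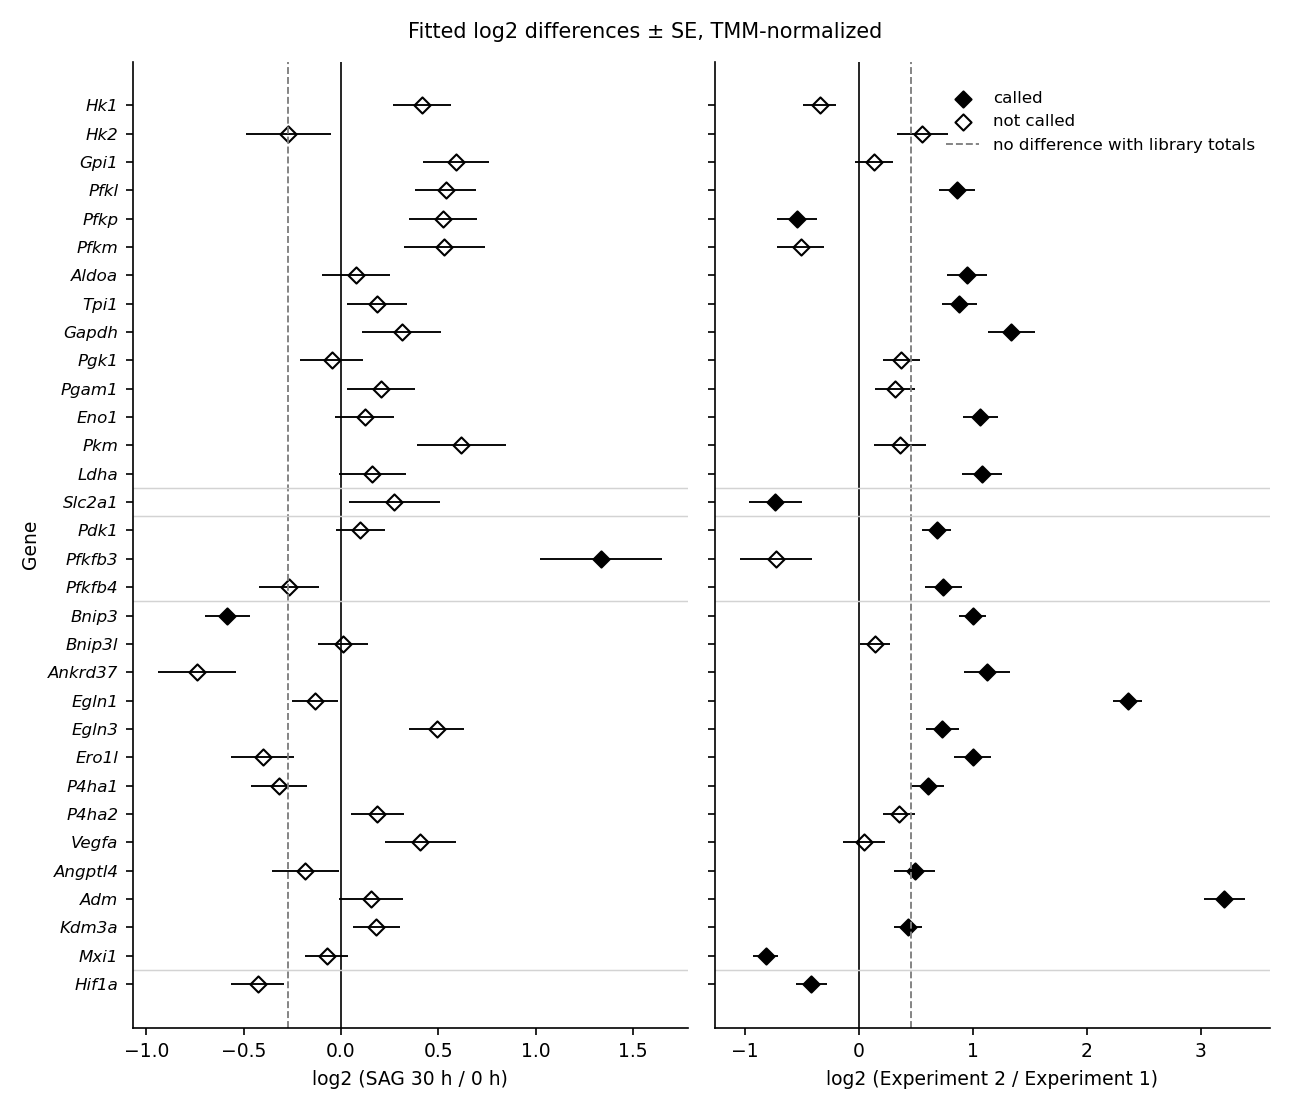
Fitted log2 differences of the 32 tested genes for SAG 30 h over 0 h (left) and for Experiment 2 without Dox over Experiment 1 (right), with bars of 1 SE; filled diamonds were called, grey lines part the role groups, and the dashed line marks where a gene would lie that did not differ with library totals. At 30 h only Pfkfb3 (1.34) and Bnip3 (-0.58) are filled, while between the experiments 21 are, with Adm (3.21) and Egln1 (2.36) farthest out.

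The 30 h change differed between the experiments for 5 genes, all of them more positive in Experiment 2. They were Slc2a1, Pfkm, Pkm, Pfkfb3 and Pfkp. Pfkl (0.65 ± 0.25 (log2 ± SE, adjusted p = 0.0573)) and Pfkfb4 (0.09 ± 0.35 (log2 ± SE, adjusted p = 0.901)), close relatives of 3 of them, were not called. Among all genes tested, 9.36% were called higher in this comparison and 17.0% in either direction, so the 5 of 32 are near the background. In this comparison each library of Experiment 1 is fitted exactly, so the SEs and p-values hold no spread from Experiment 1. They rest on how the Experiment 2 courses with and without Dox disagree over time. Slc2a1 had 27.3, 34 and 47.7 CPM at 0, 19 and 30 h with Dox and 34.5, 33.8 and 52.6 CPM without Dox in Experiment 2, against 89.1, 46.0 and 63.0 CPM at 0, 17 and 30 h in Experiment 1. Its level ended higher than it began in both courses of Experiment 2 and lower in Experiment 1, where the 0 h library was the highest of all 9. The difference between the 30 h changes was 1.21 ± 0.25 (log2 ± SE, adjusted p = 0.00042).

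Pfkm, the muscle-type phosphofructokinase, had 12.1, 20.3 and 20.3 CPM with Dox and 11.1, 14.8 and 22.1 CPM without Dox in Experiment 2, against 23.6, 19.9 and 21.6 CPM in Experiment 1. The 0 h libraries of Experiment 2 were about level with each other and below the other 7, and the 30 h changes differed by 1.02 ± 0.25 (log2 ± SE, adjusted p = 0.00273). Pfkp, the platelet type, had 6.99, 10.6 and 11.7 CPM with Dox and 7.39, 10.0 and 13.1 CPM without Dox, against 14.8, 12.9 and 15.2 CPM in Experiment 1, a difference of 0.76 ± 0.26 (log2 ± SE, adjusted p = 0.0311). For Pkm the difference was 0.95 ± 0.29 (log2 ± SE, adjusted p = 0.0188). For Pfkfb3, which rests on 1286 UMIs over all libraries, it was 1.36 ± 0.44 (log2 ± SE, adjusted p = 0.0251). Gapdh and Pgk1 were not called, with Gapdh at 0.04 ± 0.32 (log2 ± SE, adjusted p = 0.971) and Pgk1 at -0.20 ± 0.30 (log2 ± SE, adjusted p = 0.699). None of the 13 HIF targets was called, and their estimates had a median of 0.14.

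**Figure D4:**
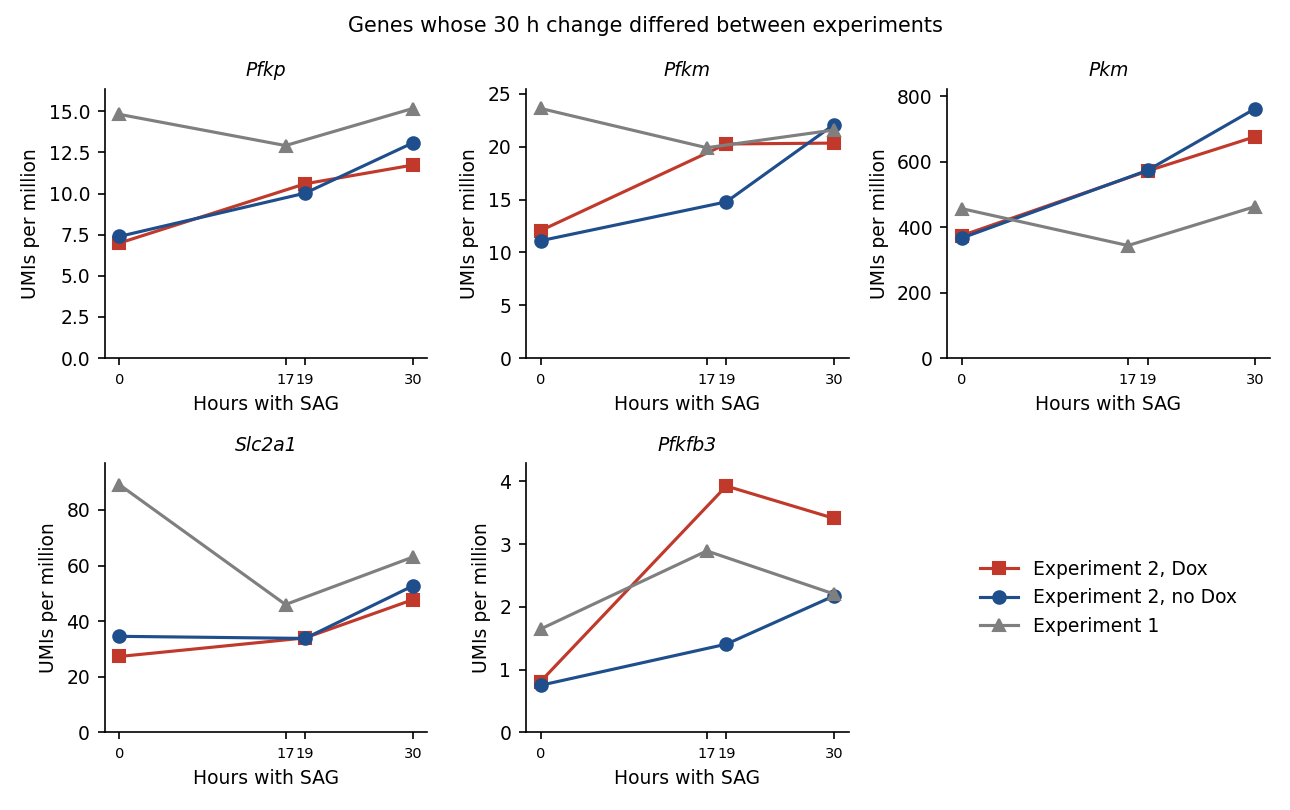
CPM (TMM-scaled) of the 5 genes whose 30 h change differed between the experiments, against hours with SAG, with 1 point for each library and lines joining libraries of 1 time course. In both courses of Experiment 2 each gene ends above its 0 h value, while Slc2a1 in Experiment 1 stands at 89.1 CPM at 0 h and 63.0 CPM at 30 h.

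These 5 kept positive estimates with library totals, from 1.30 to 1.89, where 18 of the 32 were called and the median of all genes moved to 0.61; over the table that scale gave 3949 higher and 322 lower calls, against 1343 and 1097. The count fell to 0 without the 0 h Dox library, 1 (higher) without the 30 h library lacking Dox and 3 (all higher) without the 0 h library lacking Dox. It was 13, with 11 higher and 2 lower, without either 19 h library of Experiment 2. Over all genes, 4124 of 13880 were then called without the 19 h Dox library and 4151 of 13925 without the 19 h library lacking Dox. The comparison cannot be made without the 0 h or the 30 h library of Experiment 1. Outside the set the calls were 4 higher and 1 lower of 13 ATF4 targets (Atf5 1.62 ± 0.28), 3 and 1 of 7 pentose phosphate genes (G6pdx 0.95 ± 0.26), 2 and 1 of 22 citric acid cycle genes (Sdhc 1.26 ± 0.26), 2 and 1 of 13 isozymes (Pdk4 -1.38 ± 0.29), 2 and 2 of 29 other HIF targets (Higd1a -0.85 ± 0.28), 1 and 0 of 6 HIF regulators (Arnt2 1.21 ± 0.43) and 0 and 6 of 14 mitosis genes (Ube2c -1.41 ± 0.26).

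Experiment 2 without Dox had 17 of the 32 genes higher than Experiment 1 and 4 lower. This comparison shares its Experiment 2 libraries with that of Dox, and software version and gene reference differ between the experiments, so that their parts cannot be told apart. The background is large: 48.1% of all genes were called, and 24.2% of all genes were higher. Adm had 24.6, 37.6 and 26.7 CPM at 0, 19 and 30 h in Experiment 2 without Dox, against 3.38, 2.98 and 3.02 CPM at 0, 17 and 30 h in Experiment 1. Egln1 had 52.8, 58.4 and 46.5 CPM, against 9.99, 11.1 and 9.59 CPM. The groups lay far apart, with differences of 3.21 ± 0.18 (log2 ± SE, adjusted p = 1e-06) and 2.36 ± 0.12 (log2 ± SE, adjusted p = 7.6e-07).

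Among the enzymes, Gapdh had 1152, 906 and 1413 CPM in Experiment 1, below every library of Experiment 2, and differed by 1.34 ± 0.21 (log2 ± SE, adjusted p = 0.00059). Ldha (314, 240.1 and 279 CPM in Experiment 1) differed by 1.08 ± 0.17 (log2 ± SE, adjusted p = 0.00073), Aldoa (538, 395 and 531 CPM) by 0.95 ± 0.18 (log2 ± SE, adjusted p = 0.00167) and Tpi1 (255, 211 and 266 CPM) by 0.89 ± 0.16 (log2 ± SE, adjusted p = 0.00119). Eno1 had 206, 183 and 218 CPM in Experiment 1 and differed by 1.07 ± 0.15 (log2 ± SE, adjusted p = 0.00038), while its near-copy Eno1b had 16.8 to 51.9 CPM in Experiment 2 against 3.40 to 4.80 CPM in Experiment 1. Pfkl, the liver-type phosphofructokinase, had 27.5, 38.6 and 45.2 CPM in Experiment 2 with Dox and 34, 48.2 and 59.1 CPM without Dox, against 25.3, 22.8 and 27.4 CPM in Experiment 1, a difference of 0.86 ± 0.16 (log2 ± SE, adjusted p = 0.00146). Pgk1 (643, 561 and 684 CPM in Experiment 1; 0.38 ± 0.16 (log2 ± SE, adjusted p = 0.0783)) and Pgam1 (429, 348 and 387 CPM; 0.32 ± 0.17 (log2 ± SE, adjusted p = 0.152)) did not pass. Hk1 had 24.5, 22.9 and 24.4 CPM and Hk2 17.7, 21.4 and 19.8 CPM in Experiment 1, and neither was called. Gpi1, Pfkm, Pkm and, among the regulators, Pfkfb3 were not called either, with estimates of 0.14 ± 0.17, -0.51 ± 0.21, 0.36 ± 0.23 and -0.72 ± 0.31.

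Of the HIF targets, Bnip3 differed by 1.0 ± 0.12 (log2 ± SE, adjusted p = 0.00012) and Ero1l, with 48.8, 57.7 and 46.6 CPM in Experiment 1, by 1.0 ± 0.16 (log2 ± SE, adjusted p = 0.00079). Ankrd37 (10.8, 6.85 and 8.94 CPM in Experiment 1), Egln3 (2.41, 2.84 and 3.17 CPM), P4ha1 (84.0, 90.1 and 79.6 CPM) and Angptl4 (4.53, 2.38 and 3.37 CPM) were also higher in Experiment 2, by 1.13 ± 0.20, 0.74 ± 0.14, 0.61 ± 0.14 and 0.49 ± 0.18. Kdm3a had 23.9, 30.0 and 29.6 CPM in Experiment 2 with Dox and 23.4, 22.5 and 26.6 CPM without Dox, against 17.5, 17.9 and 18.1 CPM in Experiment 1; it was called higher by 0.44 ± 0.12, but its sign turned with library totals (-0.02). Pdk1 (17.4, 15.9 and 15.5 CPM in Experiment 1) and Pfkfb4 (2.76, 2.94 and 2.21 CPM) were higher by 0.68 ± 0.13 and 0.74 ± 0.16. P4ha2 (47.0, 40.5 and 41.9 CPM in Experiment 1), Bnip3l (137, 126 and 125 CPM) and Vegfa (48.7, 87.9 and 52.7 CPM) were not called.

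The 4 that were lower in Experiment 2 were Mxi1, Slc2a1, Pfkp and Hif1a. Mxi1 had 30.2, 29.6 and 27.8 CPM in Experiment 2 with Dox and 33.5, 33.3 and 30.7 CPM without Dox, against 57.0, 56.7 and 57.6 CPM in Experiment 1, a wide gap with little change over time, and differed by -0.81 ± 0.11 (log2 ± SE, adjusted p = 0.00029). Slc2a1 differed by -0.73 ± 0.23 (log2 ± SE, adjusted p = 0.0266), Pfkp by -0.54 ± 0.17 (log2 ± SE, adjusted p = 0.0267) and Hif1a by -0.41 ± 0.14 (log2 ± SE, adjusted p = 0.0287). Of the 9 fits that left out 1 library, Hif1a and Angptl4 kept the call in 2, and Slc2a1, Pfkp and Kdm3a in 6. The other genes called between the experiments kept it in all 9. With library totals Angptl4 fell to 0.03. All 6 libraries of Experiment 2 lay above all 3 of Experiment 1 for 10 of the 32 genes, against 21.3% of all genes. With library totals 8 of the 32 were higher and 7 lower, and the calls over the table moved to 1527 higher and 5427 lower, against 3346 and 3304. Outside the set, calls higher and lower were 9 and 7 of 29 other HIF targets (Fam162a 1.79 ± 0.16, Pgm2 -1.39 ± 0.13), 8 and 3 of 13 ATF4 targets (Atf3 -5.86 ± 0.45), 4 and 10 of 22 citric acid cycle genes (Sdhd -1.45 ± 0.13), 3 and 1 of 7 pentose phosphate genes (Pgls 0.97 ± 0.21), 2 and 3 of 13 isozymes (Eno3 2.03 ± 0.18), 0 and 1 of 6 HIF regulators (Arnt -1.10 ± 0.11) and 0 and 11 of 14 mitosis genes (Cdc20 -1.19 ± 0.17).

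Single cells were compared after each was thinned to 10000 UMIs, which left 543 to 2658 cells in a library. Only cells with at least 10000 UMIs could enter. In the 19 h library without Dox these were 2610 of 6520 kept cells, so its values describe its deeper cells. Each other library kept most of its cells, such as 2658 of 2979 at 0 h without Dox in Experiment 2. The mean cell held 36.1, 56.4 and 64.9 UMIs of the 14 enzymes at 0, 19 and 30 h with Dox, 45.2, 65.4 and 76.8 without Dox and 50.1, 38.7 and 51.3 at 0, 17 and 30 h in Experiment 1. Of the 13 HIF targets it held 4.98, 5.89 and 6.12 UMIs with Dox, 5.21, 6.08 and 6.79 without Dox and 5.97, 5.81 and 5.07 in Experiment 1. These means follow library totals, not TMM factors. Across the cells of a library the 10th and 90th percentiles of the enzyme sum were 42 and 119 UMIs at 30 h without Dox, and 19 and 56 UMIs at 0 h with Dox. The variance beyond counting error, relative to the squared mean, was 0.125 to 0.244 for the enzyme sum and 0.0830 to 0.160 for the HIF sum.

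Cells rich in enzyme RNA tended to be richer in HIF target RNA, weakly. The correlation of the sums, on log(1 + UMIs), was 0.21, 0.15 and 0.17 at 0, 19 and 30 h with Dox, 0.24, 0.21 and 0.16 without Dox and 0.27, 0.18 and 0.10 at 0, 17 and 30 h in Experiment 1, with a median of 0.176 over the 9 libraries. All were above 0, and the cells of a library share its depth and composition. The value was larger at greater thinning depth, with a median of 0.114 at 5000 UMIs and 0.268 at 20000. Each depth takes only cells with at least that many UMIs, so depth and the choice of cells cannot be told apart there. The enzyme sum also went with the depth of the unthinned cell (r from 0.04 to 0.37).

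Among pairs of enzymes the closest were Gapdh with Pgk1 (median r over libraries 0.43), Tpi1 with Ldha (0.43), Gapdh with Ldha (0.42) and Pgam1 with Ldha (0.41). The hexokinases and phosphofructokinases, at 0.135 to 0.295 UMIs per cell, had lower values: with the sum of the other enzymes the median r was -0.02 for Pfkm, near 0 for Hk1, 0.04 for Pfkp, 0.09 for Hk2 and 0.18 for Pfkl, while Ldha reached 0.56 and Gapdh 0.61. The pairs overlapped, since Pfkl with Ldha (0.18) was above Aldoa with Tpi1 (0.17) and Aldoa with Pkm (0.17). Over the 91 enzyme pairs the median was 0.08, over the 78 pairs of HIF targets 0.02, and over the 182 mixed pairs 0.02. The closest mixed pair was Ldha with Bnip3 (0.24, from 0.12 to 0.28), and the closest pair of HIF targets Ero1l with Vegfa (0.11). At these few UMIs a value near 0 says little.

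**Figure D5:**
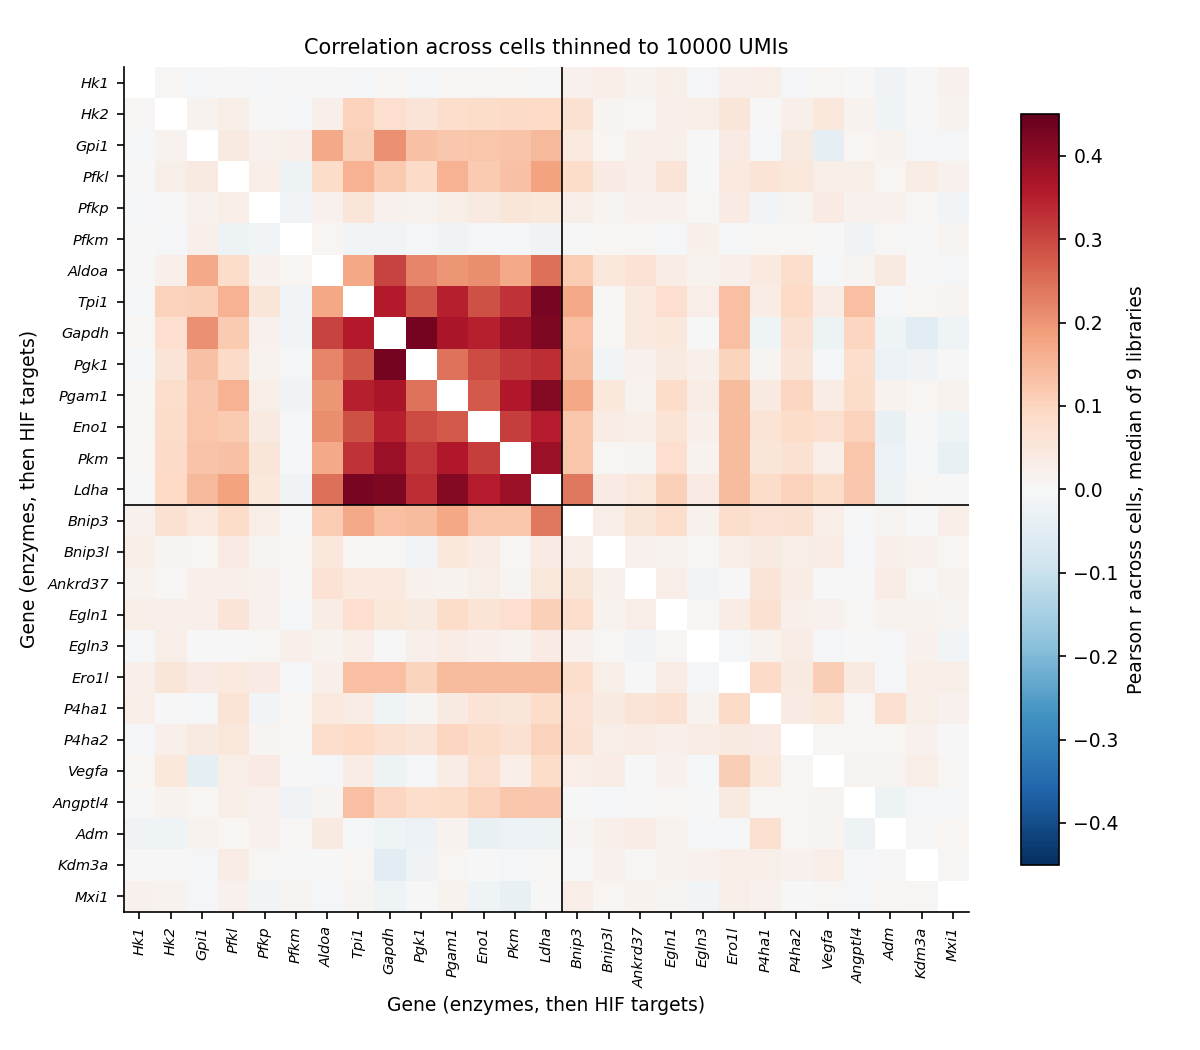
Pearson correlation across cells of each pair of the 14 enzymes and 13 HIF targets, on log(1 + UMIs) after thinning to 10000 UMIs, as the median of 9 libraries; black lines part enzymes from HIF targets. The closest pairs, up to 0.43, lie among the enzymes from Tpi1 to Ldha, and the Bnip3 and Ero1l columns are the warmest among the mixed pairs.

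Other per-cell relations are given as descriptions. The enzyme sum and the sum of the 13 ATF4 targets had r of 0.44, 0.56 and 0.54 with Dox and 0.35, 0.41 and 0.47 without Dox in Experiment 2, against -0.07, -0.11 and -0.23 in Experiment 1. With the ribosomal protein genes the HIF sum had r from -0.37 to -0.18 in all 9 libraries. Cells with a Gli1 UMI, the pathway's own readout, held 50.1 enzyme UMIs at 19 h and 59.3 at 30 h with Dox, against 58.1 and 67.0 in cells of the same libraries with none. Without Dox they held 56.8 and 61.7, against 66.0 and 79.9. In Experiment 1, with 39 and 15 such cells, they held 38.6 at 17 h and 43.5 at 30 h, against 38.7 and 51.5. The cells with Gli1 were shallower before thinning in all 6 libraries, and the part of depth in the difference was not tested.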

How the data were processed

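Single-cell RNA was captured with the 10x 3′ v3.1 chemistry, per the labels' protocols. The deposited matrices hold raw UMI counts per gene and barcode, made with Cell Ranger on mm10 per the submitters' processing notes, with version 3.1.0 for Experiment 1 and 6.0.1 for Experiment 2 per the file headers; the 2 gene references differ, and 30407 features shared by ID were used. Barcodes with 5000 UMIs or more, of which mitochondrial genes took 10% or less, were kept and their counts summed per library. No doublet caller was run and free RNA was not removed. The members and lists were chosen with earlier results of these data known.

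Sums were fitted with edgeR 4.0.16 (quasi-likelihood, TMM factors, its filter on low counts) in R 4.3.3 on time course and SAG time, with 9 libraries, and for the difference between 30 h responses on experiment by time plus Dox. P-values were adjusted by Benjamini-Hochberg over all genes tested, with a threshold of 0.05, and the fits were checked on simulated counts. Time course, or SAG time for contrasts between courses, is the replicate block. Among libraries without Dox, the difference between the experiments correlated at 0.802, 0.695 and 0.803 between times over 13837 genes. Libraries with Dox did not enter these values, so they cannot decide whether the block suits the Dox comparison. Other fits were DESeq2 1.42.0 and other filters, scalings and subsets; library totals in place of TMM factors were added after seeing the data. Every member is accounted for, with values in every library for those called and the 3 with most UMIs per role group; of other lists at most 3 called genes by smallest p are named. Counting alone limits the lowest genes, such as Slc16a3.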

Additional observations from a re-analysis of the deposited data

Results flagged for a closer look

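The change between 0 and 30 h of SAG differed between Experiment 2 and Experiment 1 for 5 genes by edgeR's interaction test at an adjusted p under 0.05. That is 5 of 32 tested, near the 17.0% of all genes called in this comparison. For Slc2a1 the 30 h change on the log2 scale was 0.81 with Dox and 0.61 without Dox in Experiment 2, against -0.50 in Experiment 1, a difference of 1.21. The Pfkm change was 0.75 with Dox and 0.99 without Dox, against -0.13 in Experiment 1, a difference of 1.02. For both genes the change was above 0 in each course of Experiment 2 and below 0 in Experiment 1. The Pkm change was 0.85 with Dox and 1.055 without Dox, against 0.02 in Experiment 1, a difference of 0.946. The Pfkfb3 change was above 0 in all 3 courses, at 2.03 with Dox and 1.4955 without Dox, against 0.42 in Experiment 1, a difference of 1.36. The Pfkp change was 0.74 with Dox and 0.82 without Dox, against 0.03 in Experiment 1, a difference of 0.762. Experiment 1 gives 1 library at each time, so each difference rests on single libraries there.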

How the results depend on the processing

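For the genes of the set, the count called was 2 for SAG at 30 h, 0 at 17 to 19 h, 12 for Dox, 21 between the experiments and 5 for the difference in 30 h response. With DESeq2 the counts were 7 for 30 h, 2 for 17 to 19 h and 3 for the response, and with its size factors 3 for the response. With no filter on low counts they were 9 and 1 at the 2 times, with up to 20% mitochondrial UMIs 4 at 30 h, and with 1% to 10% 3 for the response. Each comparison's own libraries gave 0 at 30 h and 21 for Dox. With library totals, added after seeing the data, they were 0 at 30 h, 2 for Dox and 18 for the response, and Kdm3a turned to -0.0219 between the experiments; the cause was not tested. Without the replicate block the counts were 0 at 30 h and 4 for Dox. Leaving out 1 library gave 0 to 17 at 30 h, 0 to 9 at 17 to 19 h, 1 to 20 for Dox, 16 to 24 between the experiments and 0 to 13 for the response. Among all genes, 30 h gave 785, and 1885 with DESeq2, 12 with library totals, 2212 unfiltered, 0 without the replicate block, 13 in its own libraries and 1 to 5994 leaving out a library. At 17 to 19 h the count was 3, and 109 with DESeq2, 11 at up to 20% mitochondrial UMIs, 186 unfiltered, 0 without the block and 0 to 2487 leaving out a library. For Dox it was 1454, and 600 without the block, 5233 in its own libraries and 124 to 4412 leaving out a library. For the response it was 2440, and 1184 with DESeq2, 4271 with library totals and 696 to 4151 leaving out a library. The median correlation of the enzyme and HIF sums across cells was 0.176, and 0.114 thinned to 5000 UMIs, 0.268 at 20000 and 0.234 without each sum's leading gene. Few UMIs limit Pfkfb3, Pfkfb4, Egln3 and Angptl4.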
